A study of Mus musculus with 6 samples.

Results

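Estrogen receptor alpha (ERα) binding 1 h after fulvestrant was compared between the uterus of ERα AF-2 mutant mice and that of wild-type littermates. The comparison rests on the called ERα peaks of 2 libraries, 1 per genotype, chosen by their labelled genotype and treatment. They hold 72319 of the 154923 peaks in the 6 lists of the study: 45837 mutant and 26482 wild-type peaks. Fulvestrant (ICI182780, called ICI in the labels) was injected intraperitoneally at 2 mg/kg in DMSO. The mutant group carried the knock-in allele named AF2ERKI, with genotype given as ERalpha AF-2 mutant, and the wild-type group was made up of its littermates. All mice were C57BL/6J females aged 12 weeks that had been ovariectomized. Each library came from the pooled uteri of 6 mice, so a genotype had 1 library and no spread between mice can be given. The titles of the libraries include a code, E1h, whose meaning is not stated. Whether it stands for the hour of treatment or for an estrogen given beside ICI cannot be told from the labels. The other 4 lists, used here only to describe the ICI peaks, came from mutant and wild-type uteri 1 h after tamoxifen (2 mg/kg) or 50 µl DMSO as vehicle.

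ERα is a nuclear receptor that binds DNA as a dimer and regulates transcription in the epithelium, stroma and myometrium of the uterus. AF-2 is the surface of its ligand-binding domain to which coactivators dock once an agonist has folded helix 12 of the receptor into place. Fulvestrant is a steroidal antagonist that keeps helix 12 from this position and promotes loss of the receptor protein. Mice with this mutation are known for responding to certain estrogen antagonists as if these were agonists, depending on the tissue. Each peak was a called interval of 200 bp in the mouse build mm9, without a height or score. Whole uterus was used, so a site bound in fewer cells and a site bound more weakly in each cell cannot be told apart, and genotype cannot be told apart from library. Sites are given by position, counted from 1, and not by gene.

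After ICI, the mutant list held most of the wild-type sites and many more besides. Peaks that overlapped by at least 1 bp were called shared. By this rule 19272 mutant peaks met 19270 wild-type peaks, which formed 19270 shared sites. The mutant had 26565 peaks without a wild-type counterpart, 58.0% of its list, and the wild type had 7212 without a mutant counterpart, 27.2% of its list. Of the 53047 distinct sites, 50.1% were mutant only, 13.6% wild type only and 36.3% shared. A peak missing from a list may lie below the authors' calling threshold, so these classes describe calls and not the presence or absence of receptor.

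Shared sites were centred close together in the genotypes. The overlap in a shared pair had a median of 183 bp of the 200 bp width, with quartiles of 167 and 192 bp, and was 100 bp or more in 97.0% of pairs. The rule itself limits the offset to under 200 bp. The midpoints lay a median of 17 bp apart, and the signed offset, mutant minus wild type, had a median of 1 bp. At the 16656 shared peaks also called with tamoxifen in the mutant, the median offset was again 17 bp between the genotypes under ICI. Between ICI and tamoxifen within the mutant it was 11 bp at these peaks. The matching offset within the wild type was not computed, so genotype cannot be told apart from the wild-type ICI library here. Few peaks lay near the edge of the rule. In the mutant list, 74 shared peaks overlapped by 1 to 20 bp, and 81 mutant-only peaks had a gap of 0 to 19 bp to a wild-type peak. In the wild-type list, 72 shared peaks overlapped by 1 to 20 bp, and 80 wild-type-only peaks had a gap of 0 to 19 bp to a mutant peak. In the closest pairs without overlap the peaks touched. On chromosome 5 the mutant peak at 64340466 to 64340665 was followed directly by the wild-type peak at 64340666 to 64340865, and the chromosome 6 pair ran 31698279 to 31698478 and 31698479 to 31698678, again with the mutant peak upstream in coordinate. The smallest overlap was 1 bp, as on chromosome 3, where the mutant peak began at 115350106 and the wild-type peak at 115349907. Gaps of under 1000 bp to the other list were found for 12.3% of mutant-only and 19.3% of wild-type-only peaks. The lists being compared differ in length, so these shares are not like for like.

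The tamoxifen and vehicle lists were not used to form the classes and show which of their sites were called elsewhere. Among mutant-only ICI peaks, 55.0% (exact 95% binomial interval 54.4 to 55.6, covering counting error only, as do all intervals here) were also mutant tamoxifen peaks and 42.1% (41.6 to 42.7) were wild-type tamoxifen peaks. Among wild-type-only peaks the shares were 13.5% (12.7 to 14.3) in the mutant tamoxifen list and 34.2% (33.1 to 35.3) in the wild-type tamoxifen list. Shared mutant peaks stood at 86.4% (85.9 to 86.9) in the mutant and 86.3% (85.9 to 86.8) in the wild-type tamoxifen list. The mutant-only and wild-type-only classes were therefore each called more often with tamoxifen in their own genotype than in the other. The tamoxifen lists were of nearly equal length (36538 mutant and 37327 wild-type peaks).

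**Figure D1:**
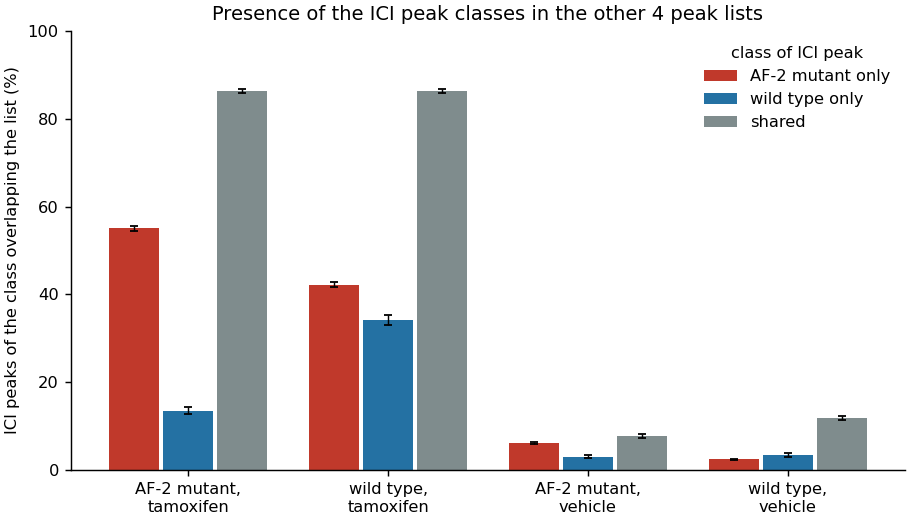
Share of AF-2 mutant only, wild type only and shared (mutant side) ICI peaks, in percent, that overlap each of the tamoxifen and vehicle lists by at least 1 bp. Bars are shares of the class, and error bars are exact 95% binomial intervals for counting error only. Shared peaks reach 86.4% and 86.3% in the tamoxifen lists, mutant-only peaks 55.0% and 42.1%, and wild-type-only peaks 13.5% and 34.2%.

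The combination of tamoxifen lists separated the classes further. Of the mutant-only peaks, 28.9% were called with tamoxifen in both genotypes, 26.1% in the mutant alone, 13.2% in the wild type alone and 31.8% in neither. Thus 42.8% (42.2 to 43.4) of the mutant-only ICI peaks were called in some wild-type list, with tamoxifen or vehicle. Of the wild-type-only peaks, 6.42% were called with tamoxifen in both genotypes, 7.04% in the mutant alone, 27.7% in the wild type alone and 58.8% in neither. A mutant list, with tamoxifen or vehicle, held 15.1% (14.3 to 15.98) of them. Peaks found in none of the other 4 lists made up 30.7% of the mutant-only class, 56.7% of the wild-type-only class and 4.93% of shared mutant peaks.

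Sites called after vehicle were more frequent among shared peaks than among mutant-only or wild-type-only ones. The mutant vehicle list held 6.05% (5.76 to 6.34) of mutant-only peaks, 2.97% (2.59 to 3.39) of wild-type-only peaks and 7.63% (7.26 to 8.01) of shared mutant peaks. The wild-type vehicle list held 2.30% (2.12 to 2.48) of mutant-only peaks, 3.29% (2.89 to 3.72) of wild-type-only peaks and 11.7% (11.3 to 12.2) of shared mutant peaks. Read the other way, 1606 of 5027 mutant vehicle peaks (31.9%) were called with ICI in the mutant alone, 226 (4.50%) in the wild type alone and 1469 (29.2%) in both. Of 3712 wild-type vehicle peaks, 614 (16.5%) were called with ICI in the mutant alone, 241 (6.49%) in the wild type alone and 2260 (60.9%) in both. Wild-type vehicle sites lay in both ICI lists more often than mutant vehicle sites did, and 34.3% of mutant vehicle peaks against 16.1% of wild-type vehicle peaks were in neither.

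Mutant-only peaks lay closer to shared sites than wild-type-only peaks did. The gap to the nearest shared site had a median of 19.2 kb for mutant-only peaks (quartiles 5.81 and 53.5 kb, n = 26564) and 25.6 kb for wild-type-only peaks (8.51 and 69.8 kb, n = 7211). Shared sites themselves lay a median of 16.5 kb from the next shared site (5.54 and 46.9 kb, n = 19267). Peaks on a chromosome piece without a shared site have no such distance. Within 1 kb of a shared site were 9.06% (8.72 to 9.41) of mutant-only and 7.16% (6.57 to 7.78) of wild-type-only peaks. Within 10 kb the shares were 35.5% (34.9 to 36.0) for mutant-only and 28.2% (27.2 to 29.3) for wild-type-only peaks, and within 100 kb 86.9% (86.5 to 87.3) and 83.2% (82.3 to 84.0) in that order of classes. Both are measured against the same set of shared sites.

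**Figure D2:**
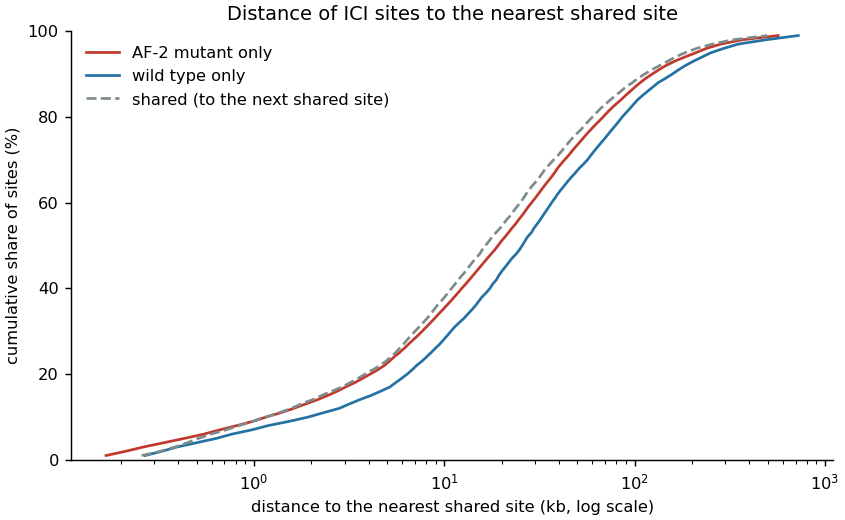
Cumulative share of mutant-only and wild-type-only ICI peaks, in percent, against the gap to the nearest shared site in kb on a log scale; the dashed line gives the gap between neighbouring shared sites. The mutant-only curve (median 19.2 kb) runs between that of shared sites (16.5 kb) and that of wild-type-only peaks (25.6 kb) over most of the range.

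The nearest distances show a further difference. Gaps of under 200 bp to a shared site were found for 459 mutant-only peaks (1.73%) and 24 wild-type-only peaks (0.333%). Between 200 and 500 bp the shares were alike, at 3.88% of mutant-only and 3.65% of wild-type-only peaks. The gap was measured from the joined span of the shared pair. Within a list, no peaks began closer to each other than 269 bp for mutant ICI and 292 bp for wild-type ICI. At the other extreme, the mutant-only peak farthest from a shared site, at a gap of 5644478 bp, lay on chromosome 15 at 18791271 to 18791470. The next, at a gap of 5578935 bp, lay on chromosome 17 at 95168337 to 95168536. The wild-type-only peaks farthest away came from the same chromosomes, that of chromosome 17 spanning 95149198 to 95149397 and that of chromosome 15 spanning 18553606 to 18553805. Far from shared sites did not always mean far from the other list. The nearest mutant ICI peak was 154 bp from the chromosome 17 wild-type-only peak and 237465 bp from the chromosome 15 one. The chromosome 15 mutant-only site was called with tamoxifen in both genotypes and the wild-type-only site there with tamoxifen in the wild type. Both chromosome 17 sites were called in no tamoxifen or vehicle list.

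Distance to shared sites went along with presence in the tamoxifen lists, in different ways for the classes. Mutant-only peaks within 1 kb of a shared site were in the mutant tamoxifen list at 61.1% (59.1 to 63.0) and in the wild-type one at 49.1% (47.0 to 51.1). Those over 100 kb away were in them at 49.5% (47.8 to 51.2) and 37.9% (36.3 to 39.5). For wild-type-only peaks the mutant tamoxifen list gave 12.98% (10.2 to 16.2) within 1 kb and 13.3% (11.4 to 15.3) over 100 kb. The wild-type tamoxifen list gave 27.5% (23.7 to 31.6) within 1 kb, 37.4% (35.0 to 39.9) over 1 to 10 kb, 32.9% (31.4 to 34.4) over 10 to 100 kb and 37.2% (34.5 to 39.97) beyond. For mutant-only peaks the share found with tamoxifen fell with each step in distance, the steps between being 58.5% and 53.6% in the mutant list and 43.4% and 41.4% in the wild-type list. For wild-type-only peaks the share in the wild-type tamoxifen list was lowest within 1 kb and had no steady order further out. The vehicle lists did not show the fall seen with tamoxifen. Mutant-only peaks within 1 kb and over 100 kb stood at 5.82% and 7.45% in the mutant vehicle list. In the wild-type vehicle list they stood at 2.41% and 3.05%. For wild-type-only peaks these shares were 2.91% and 2.89% (mutant vehicle list), and 2.52% and 4.95% (wild-type vehicle list). In each case the intervals at these distances overlapped.

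Mutant-only peaks gathered where shared sites were dense, and wild-type-only peaks did so to a smaller extent. Chromosomes 1 to 19 and X were divided from their start into 26368 windows of 100 kb, of which 9595 held a shared site. Windows without one held a mean of 0.435 mutant-only and 0.144 wild-type-only peaks. Windows with 1 shared site held 1.40 mutant-only and 0.398 wild-type-only peaks, and the 19 windows with 10 or more held 5.95 and 0.789 in the same order. The ratio of mutant-only to wild-type-only peaks was 3.02 in windows without a shared site, 3.53 with 1 shared site, 4.26 with 3, 5.41 with 5 or 6 and 7.53 with 10 or more. The last group rests on 113 mutant-only and 15 wild-type-only peaks. Windows without a shared site held 27.5% of all mutant-only and 33.5% of all wild-type-only peaks.

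**Figure D3:**
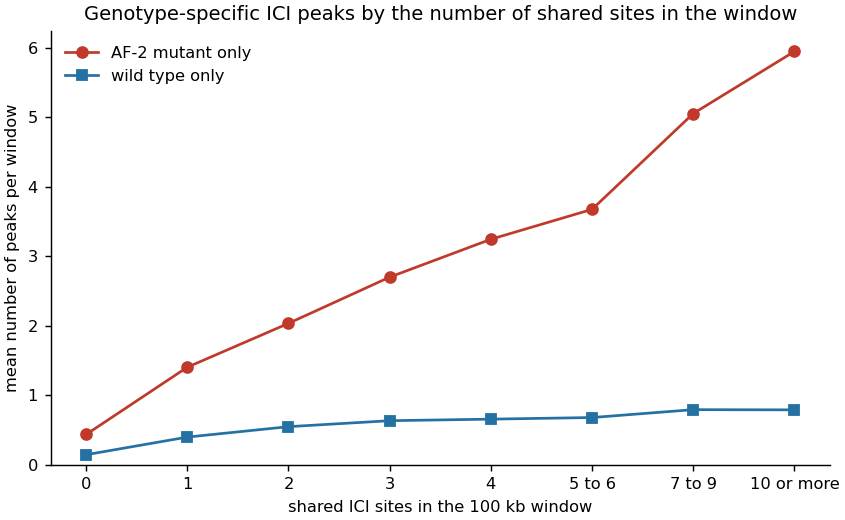
Mean number of mutant-only and wild-type-only ICI peaks per 100 kb window, by the number of shared ICI sites in the window. The mutant-only mean climbs across the groups to 5.95 peaks in the 19 windows with 10 or more shared sites, and the wild-type-only mean there is 0.789.

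The excess of mutant sites was spread evenly over the chromosomes. The ratio of mutant to wild-type ICI peaks ran from 1.64 on chromosome 5 to 1.77 on chromosome 16 over 20 chromosomes, and was 1.74 on the X chromosome. Mutant-only peaks made up between 55.5% of mutant peaks, on chromosome 5, and 59.7%, on chromosome 12. Wild-type-only peaks made up between 24.3% of wild-type peaks, on chromosome 8, and 29.99%, on chromosome 15. On the X chromosome the density of mutant-only peaks was 0.308 times that of the autosomes, at 3.24 against 10.5 per Mb. Wild-type-only peaks had 0.889 against 2.86 per Mb and shared sites 2.31 against 7.64 per Mb, which are ratios of 0.311 and 0.303. The X chromosome held 2.03% (1.87 to 2.21) of mutant-only, 2.05% (1.74 to 2.41) of wild-type-only and 2.00% (1.81 to 2.21) of shared sites, and these intervals overlap. Along the chromosomes, cut into 10 equal parts, the mutant-only share varied between 56.3% and 59.0% and the wild-type-only share between 25.9% and 29.5%. Chromosome lengths were taken as the end of the last peak in any list. On the unplaced pieces of the assembly lay 10 mutant-only and 2 wild-type-only peaks.

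Windows of 100 kb showed how far the genotypes differed locally. An ICI peak of either genotype lay in 14895 windows, of which 9880 held more mutant peaks, 2006 more wild-type peaks and 3009 equal numbers. Mutant peaks without any wild-type peak were found in 3317 windows, and wild-type peaks without any mutant peak in 953. Windows with 4 wild-type peaks held a median of 5 mutant peaks, and those with 8 a median of 11.5. Across the 14895 windows the counts were correlated (Pearson's r = 0.727), which describes these 2 lists only, since windows share chromatin and are not replicates.

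A window was taken to favour a genotype when it held at least 5 ICI peaks of both lists together and at least 3 times as many of 1 genotype. Among the 5973 windows with enough peaks, 1117 favoured the mutant (18.7%) and 21 the wild type (0.352%). Because the mutant list is longer, windows were also judged with counts divided by the length of their list, at 2 times. On that scale 899 windows (15.1%) favoured the mutant and 538 (9.01%) the wild type, a rule that the wild type meets with little more than an equal count of peaks. With tamoxifen, where the lists were of similar length, the rule of 3 times gave 225 of 5991 windows for the mutant (3.76%) and 207 for the wild type (3.46%). By chromosome, the share of windows favouring the mutant under ICI ran from 14.8% on chromosome 5 to 23.2% on chromosome 12.

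**Figure D4:**
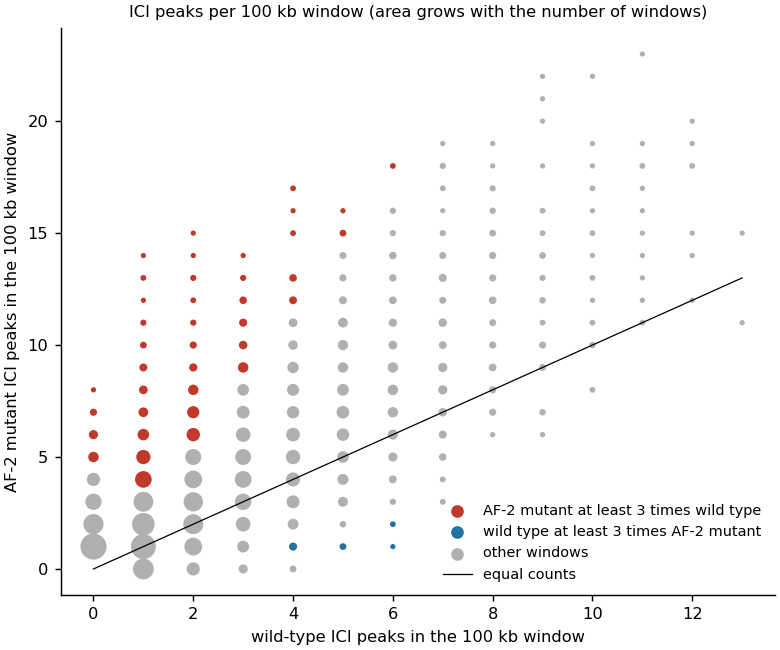
Number of mutant ICI peaks (vertical axis) against wild-type ICI peaks (horizontal axis) in each 100 kb window; the area of a point grows with the number of windows that share its pair of counts, and the line marks equal counts. The 1117 windows with at least 3 times as many mutant peaks fill the upper left, and the 21 with at least 3 times as many wild-type peaks lie at 4 to 6 wild-type peaks.

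The windows chosen on ICI peaks differed in the same direction with tamoxifen, whose peaks had no part in the choice. The ICI ratio in these windows is set by the rule that chose them, so its size cannot be compared with the tamoxifen ratio. The 1117 windows favouring the mutant held 6932 mutant and 1616 wild-type ICI peaks, a ratio of 4.29, and 5049 mutant and 3921 wild-type tamoxifen peaks, a ratio of 1.29. Mutant tamoxifen peaks were the more numerous in 644 of them (57.7%, 54.7 to 60.6) and wild-type tamoxifen peaks in 256 (22.9%, 20.5 to 25.5). Over all 5973 windows with enough ICI peaks these shares were 40.8% (39.5 to 42.0) and 35.9% (34.7 to 37.2) in the same order, and in windows favouring neither genotype 36.9% and 38.8%. The 21 windows favouring the wild type held 23 mutant and 95 wild-type ICI peaks, and 31 mutant and 66 wild-type tamoxifen peaks. Wild-type tamoxifen peaks were the more numerous in 13 of the 21 (61.9%, 38.4 to 81.9) and mutant ones in 4. In the 4835 windows that favoured neither, the tamoxifen lists held 21335 mutant and 21550 wild-type peaks. Windows favouring the mutant held 609 mutant and 252 wild-type vehicle peaks, and those favouring the wild type held 2 mutant and 12 wild-type vehicle peaks. All 5973 windows together held 3157 mutant and 2409 wild-type vehicle peaks, from vehicle lists whose lengths had a ratio of 1.35, mutant over wild type.

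Ranked by the excess of mutant ICI peaks, 5 windows led with an excess of 13, followed by 10 tied at 12. Of the tied windows, the 3 with the highest ratio of mutant to wild-type peaks were described, which favours windows with few wild-type peaks. These 8 windows held 125 mutant and 24 wild-type ICI peaks, with 102 mutant-only peaks, 1 wild-type-only peak and 23 shared sites. All but 1 of the wild-type ICI peaks in these windows were thus shared with the mutant. On chromosome 7 at 139400001 to 139500000 there were 15 mutant against 2 wild-type ICI peaks, 13 mutant against 5 wild-type tamoxifen peaks and 2 against 0 vehicle peaks. The mutant excess was present there under every treatment. On chromosome 7 at 56700001 to 56800000 there were 14 mutant against 2 wild-type ICI peaks, and 11 against 3 with tamoxifen. On chromosome 7 at 71000001 to 71100000, by contrast, 17 mutant against 4 wild-type ICI peaks stood beside 13 against 12 with tamoxifen, so the genotypes were nearly level with the second ligand. The window on chromosome 18 at 79200001 to 79300000 was of the same kind, with 14 mutant against 1 wild-type ICI peak and 11 against 10 tamoxifen peaks. On chromosome 15 at 32200001 to 32300000 there were 13 mutant against 1 wild-type ICI peak and 10 against 6 with tamoxifen. The window on chromosome 2 at 169600001 to 169700000 had 13 mutant against 1 wild-type ICI peak and 11 against 5 with tamoxifen. The other two lay on chromosome 2 at 105000001 and on chromosome 4 at 149200001. Mutant tamoxifen peaks outnumbered wild-type ones in all 8 windows, by 1 to 8 peaks. Over all 15 windows with an excess of 12 or more, which held 262 mutant and 77 wild-type ICI peaks, they did so in 14, and the numbers were equal in 1.

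Windows with an excess of wild-type ICI peaks were sparse in comparison. The largest excess was 5, in 1 window, and 14 windows tied at 4. Of the tied windows, the 7 with the highest ratio of wild-type to mutant peaks were described. With the first, these held 3 mutant and 36 wild-type ICI peaks, 5 mutant and 21 wild-type tamoxifen peaks, and 1 mutant and 5 wild-type vehicle peaks. The excess of 5 was on chromosome 4 at 136500001 to 136600000, with 1 mutant against 6 wild-type ICI peaks and 1 against 6 with tamoxifen. Its mutant ICI peak and the 6 wild-type ones did not overlap. In 5 of the windows 4 wild-type ICI peaks met 0 mutant ones, which is below the minimum of 5 peaks used above. Among these, the window on chromosome 2 at 178600001 to 178700000 had 0 mutant against 3 wild-type tamoxifen peaks and 0 against 1 vehicle peak. The window on chromosome 19 at 5500001 to 5600000 had 0 tamoxifen and 0 vehicle peaks in either genotype, so its 4 wild-type peaks were found with ICI only. On chromosome 1 at 174600001 to 174700000 there were 1 mutant against 5 wild-type ICI peaks and 1 against 4 with tamoxifen. Wild-type tamoxifen peaks were more numerous in 7 of the 8 windows, and the numbers were equal in 1. Over all 15 windows with an excess of 4 or more, which held 16 mutant and 77 wild-type ICI peaks, wild-type tamoxifen peaks were more numerous in 13, and the numbers were equal in 2.

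Equal numbers did not mean the same sites. The fullest window with equal counts, on chromosome 2 at 74500001 to 74600000, held 12 mutant and 12 wild-type ICI peaks. Of its sites, 9 were shared, and 3 ICI peaks of each genotype had no counterpart in the ICI list of the other. Over the whole lists, 58.0% of mutant and 27.2% of wild-type ICI peaks had none. The window also held 13 mutant against 10 wild-type tamoxifen peaks and 4 against 2 vehicle peaks.

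**Figure D5:**
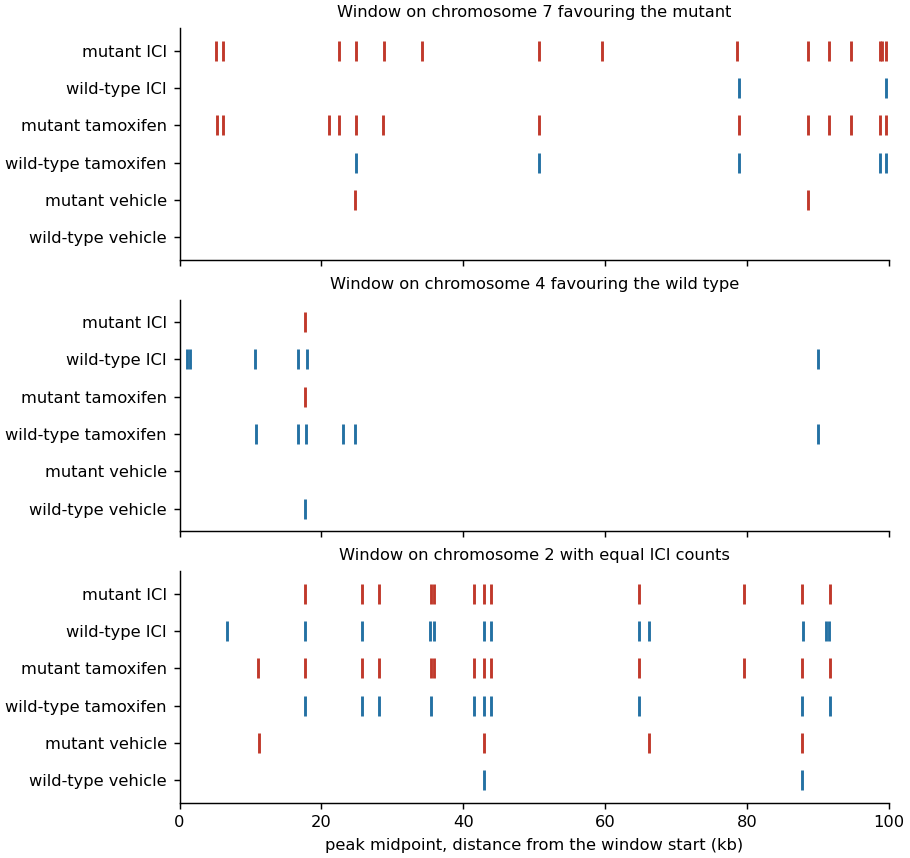
Peak midpoints in 3 windows of 100 kb, in kb from the window start, with a row for each of the 6 lists (mutant lists in red, wild-type lists in blue). The window on chromosome 7 has 15 mutant and 2 wild-type ICI peaks, that on chromosome 4 has 1 and 6, and that on chromosome 2 has 12 of each.

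Windows favouring the mutant were mostly single. Of the blocks they formed, 836 were of 1 window, 110 of 2, 12 of 3, 5 of 4 and 1 of 5 neighbouring windows. The longest block, on chromosome 12 at 33300001 to 33800000, held 39 mutant against 8 wild-type ICI peaks, 31 against 16 with tamoxifen and 7 against 1 with vehicle. It contained 6 shared sites.

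Along the chromosomes, mutant-only sites followed each other at about the share they made up of all sites. The next site was again mutant only for 51.1% of mutant-only sites, which made up 50.1% of all sites. For wild-type-only sites it was again wild type only at 18.4%, against 13.6% of all sites, and for shared sites again shared at 37.2%, against 36.3%. Runs of 5 or more neighbouring sites of the same class held 21.9% of mutant-only, 1.08% of wild-type-only and 7.72% of shared sites. A class that makes up more of all sites forms long runs more readily, so these shares are not like for like. The longest mutant-only run had 18 sites, on chromosome 4 at 57998729 to 58550627, of which 14 were mutant tamoxifen sites and 6 wild-type tamoxifen sites. A run of 17 mutant-only sites on chromosome 2 at 169543574 to 169682454 spanned 139 kb and had 15 sites in the mutant tamoxifen list and 6 in the wild-type one. The longest shared run had 13 sites, on chromosome 1 at 90319668 to 90488147, of which 11 were called in each tamoxifen list.

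The longest wild-type-only run had 9 sites over 2464 kb on chromosome 6 at 67560479 to 70024330. Of these sites, 0 were called in the mutant tamoxifen list and 8 in the wild-type one, and 0 in the mutant vehicle list and 4 in the wild-type one. In the whole span the mutant had 0 tamoxifen and 0 vehicle peaks, against 22 tamoxifen and 5 vehicle peaks in the wild type. The next longest, with 8 sites on chromosome 4 at 133310479 to 133621708, had 2 of its sites in the mutant tamoxifen list and 1 in the wild-type one. Another of the longest, with 6 sites on chromosome 16 at 28104992 to 28840937, had 0 mutant and 4 wild-type tamoxifen peaks in its span, and 0 vehicle peaks in either genotype.

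Set beside the same classes formed from the tamoxifen and vehicle lists, the ICI classes were the most lopsided between genotypes. With tamoxifen, 34.6% (34.1 to 35.0) of mutant and 35.9% (35.4 to 36.4) of wild-type peaks had no counterpart, and with vehicle 78.3% (77.1 to 79.4) of mutant and 70.6% (69.1 to 72.0) of wild-type peaks. Under tamoxifen, too, the mutant-only peaks lay closer to shared sites than the wild-type-only peaks, with medians of 15.2 kb for the mutant-only and 20.9 kb for the wild-type-only class. No difference between treatments was tested, since each list is 1 library.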

How the data were processed

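ERα ChIP-seq was carried out on pooled uteri, 1 library per genotype and treatment. The authors deposited 1 peak list per library. Its values are other than read counts: the start and end of each peak, exactly 200 bp wide in every list, with no score. The submitters' processing notes name the build mm9 and, without their roles, HOMER 4.10.3, bedtools 2.24.0, Bowtie2 2.1.0, Picard and SAMtools. The sources used here give no calling threshold, use of input or read depth. Depth and threshold set how many peaks a list holds, and with it every class size.

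Overlaps, gaps and windows were computed with Python 3.11.15 (numpy 2.4.6, scipy 1.17.1) and checked on simulated lists. Counts from bedtools 2.31.1 matched in all 18 overlaps compared (0 differed). Each peak was counted in the window that held its midpoint. With 1 library per group no test was made. Shares carry exact (Clopper-Pearson) 95% intervals, which cover counting error only.

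Named windows are the 8 with the largest excess in each direction, and the fullest with equal counts. Ties in excess were broken by the larger ratio of counts with 1 added to each, then by position. Named runs are the longest of each class. Named sites are the peaks farthest from any shared site and those nearest to a peak of the other list without overlap. The classes and rules were chosen with earlier results of these data known. Gene positions and sequence motifs need mm9, which was not used here, so no promoter shares, genes or response elements are given.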

Additional observations from a re-analysis of the deposited data

Results flagged for a closer look

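The mutant list was the longer with ICI, while the tamoxifen lists were of nearly equal length. The mutant had 45837 and the wild type 26482 peaks with ICI, a ratio of 1.73, whereas with tamoxifen the mutant had 36538 and the wild type 37327, a ratio of 0.979. This difference between the ligands was not tested, since each list is 1 library. With vehicle the ratio was 1.35.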

How the results depend on the processing

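A smaller share of mutant than of wild-type peaks was shared under each overlap rule tried. Mutant-only peaks lay closer to shared sites than wild-type-only ones under each distance alternative run, which did not include merged peaks. With an overlap of at least 100 bp, 40.8% of mutant and 70.6% of wild-type peaks were shared. With gaps of up to 500 bp counted as shared, these were 46.8% and 76.5%, and with peaks within 1 kb merged first 44.7% and 74.0%. The median distance to a shared site was 19.9 kb for mutant-only peaks at an overlap of 100 bp. It was 20.5 kb for mutant-only and 26.8 kb for wild-type-only peaks with gaps of up to 500 bp, and 25.6 and 34.5 kb to the shared sites that were also in both tamoxifen lists. Requiring 10 peaks per window left 218 windows favouring the mutant and 0 favouring the wild type, of 1882 tested. Scaling to list length gave 538 for the wild type. Presence in tamoxifen lists was recomputed under rules added after the data were seen. The changed overlap rule applied both to the ICI classes and to the match with the tamoxifen list. Gaps of up to 500 bp therefore also counted as presence in a tamoxifen list under that rule. At 100 bp, 54.4% of mutant-only peaks were in the mutant list and 31.7% of wild-type-only peaks in the wild-type list. With gaps of up to 500 bp, mutant-only peaks stood at 56.8% (mutant list) and 43.6% (wild-type list), and wild-type-only peaks at 14.96% and 38.3%. The other 18 of 38 alternatives stayed within the counting interval or within 1.5 times the count. Beyond the changed rules themselves, the cause of these shifts was not tested. A stricter peak threshold and distances to transcription starts were not run, since the lists hold no scores and mm9 gene positions were not used. No paired analysis was possible because each group has 1 library.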

Other observations

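Stretches of chromosome with called sites of 1 genotype alone in all 6 lists were looked for after the run on chromosome 6 had been seen. Peaks of the 6 lists were merged where they overlapped, and neighbouring sites held by the same single genotype were joined. Stretches of at least 12 peaks numbered 28 for the mutant and 5 for the wild type. The mutant and wild-type lists held 45837 and 26482 peaks with ICI, 36538 and 37327 with tamoxifen, and 5027 and 3712 with vehicle. No allowance was made for these lengths, so the counts of stretches are not like for like.

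The fullest belonged to the wild type and lay on chromosome 6 at 67560479 to 70167193, over 2.61 Mb. It held 24 sites and 37 wild-type peaks, of which 9 were with ICI, 23 with tamoxifen and 5 with vehicle. The mutant lists had 0 peaks there, their nearest ones ending at 67251321 and starting at 70659706. Whether the sequence of this stretch, or the mapping of reads to it, differs between the genotypes was not tested, so the absence of mutant peaks there is a statement about calls. A second long one, on chromosome 16 at 39065966 to 41511146, held 4 wild-type ICI, 12 tamoxifen and 2 vehicle peaks over 2.45 Mb.

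The fullest mutant stretches were shorter than the wild-type ones on chromosomes 6 and 16. That on chromosome 3 at 120189910 to 120497385 held 13 mutant ICI, 11 tamoxifen and 1 vehicle peaks over 307 kb. That on chromosome 15 at 4306480 to 5013999 held 11 ICI, 11 tamoxifen and 2 vehicle peaks over 708 kb. A stretch of 19 peaks on chromosome 15 at 39440908 to 39645579 held 12 ICI, 6 tamoxifen and 1 vehicle peaks over 205 kb. On chromosome 12 at 110633814 to 110684388, 9 ICI, 6 tamoxifen and 3 vehicle peaks of the mutant lay within 50.6 kb, with no wild-type peak among them. These stretches are extremes among many, and what sets them apart was not tested.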
